A study of Mus musculus with 6 samples.

Results

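Peaks of the transcription factors (TFs) Gli3 and Hand2 were counted around 53 Wnt genes of the mouse: 19 Wnt ligands, 10 Frizzled receptors, the coreceptors Lrp5, Lrp6, Ror1 and Ror2, the nuclear and feedback genes Axin2, Lef1, Tcf7, Tcf7l1 and Tcf7l2, 7 R-spondins and Lgr receptors, and 8 secreted inhibitors. They were named from the 21951 protein-coding genes of the annotation. A peak was counted for a gene when its midpoint lay within 50 kb of the gene body, and the other 21898 protein-coding genes served for comparison.

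The peaks came from ChIP-seq with an antibody to FLAG on CD1 embryos at embryonic day 11.5. Gli3 was profiled in the whole face (the frontonasal, maxillary and mandibular prominences) and in the mandibular prominence (MNP) of embryos with the Gli3 3XFlagbio allele, in which a FLAG and biotin tag sits in the endogenous Gli3 gene. Hand2 was profiled in the MNP of embryos whose genotype is labelled Hand2 3XFlagbio (Hand2 3xFlag in the study's list of reagents). Each of these 3 groups had 2 samples, each made from tissue pooled over embryos, and the 2 samples of a group were merged by the authors into 1 list of shared peaks, with 5427 peaks for Gli3 in the MNP, 5752 for Gli3 in the whole face and 59583 for Hand2 in the MNP.

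The lists give positions with no heights, so the read depth behind a peak was unknown here, there was no value for a single sample, and no test between samples was made. Beside a share stands its 95% interval by Wilson's method, which reflects the number counted and no other error. The Hand2 list is far longer than either Gli3 list, so counts are compared within a list.

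Wnt proteins are secreted, lipid-modified signals that bind a Frizzled receptor together with a coreceptor. In the canonical branch, Lrp5 or Lrp6 takes part and β-catenin enters the nucleus, where it binds Tcf/Lef factors. In the noncanonical branch, Ror1 and Ror2 receive Wnt5a and related ligands and cell polarity and movement are altered. R-spondins, through Lgr receptors, raise the number of Frizzled receptors at the cell surface, and Sfrp, Dkk and Notum proteins restrain the pathway outside the cell. In the facial prominences, Wnt signals from the epithelium act on the neural crest-derived mesenchyme, in which Gli3 carries the Hedgehog response and Hand2 patterns the mandible.

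Sequences are given first for 10 sites in Gli3 peaks near these genes. Most hold GACCACCC, the core of the canonical Gli binding motif (cGBM), and they are shown because Gli factors bind these letters directly. The windows near Wnt11, Fzd2 (the one upstream) and Axin2 were chosen after their values were seen, because they hold CTTTGAT, the letters read by Tcf/Lef factors. Each run reads 5′ to 3′ on the strand given, in mm10, and capitals mark GACCACCC, the divergent Gli letters GACCTCCC, the Hand-type E-box CAGATG and CTTTGAT, on either strand (ATCAAAG is CTTTGAT read on the other strand).
Wnt6, intron, chr1:74777016-74777103, minus strand: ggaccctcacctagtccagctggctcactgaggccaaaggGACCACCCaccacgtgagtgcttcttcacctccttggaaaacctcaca
Wnt11, upstream, chr7:98797759-98797845, minus strand: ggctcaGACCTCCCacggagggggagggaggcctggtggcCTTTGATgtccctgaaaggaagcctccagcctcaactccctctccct
Fzd2, upstream, chr11:102595592-102595678, plus strand: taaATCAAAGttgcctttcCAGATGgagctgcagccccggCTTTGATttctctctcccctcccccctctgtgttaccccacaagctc
Fzd2, downstream, chr11:102631329-102631416, plus strand: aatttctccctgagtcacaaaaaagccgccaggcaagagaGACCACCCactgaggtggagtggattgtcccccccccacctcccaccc
Fzd10, upstream, chr5:128581595-128581682, plus strand: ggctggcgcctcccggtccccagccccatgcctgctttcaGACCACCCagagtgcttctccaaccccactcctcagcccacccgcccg
Ror2, intron, chr13:53222656-53222743, plus strand: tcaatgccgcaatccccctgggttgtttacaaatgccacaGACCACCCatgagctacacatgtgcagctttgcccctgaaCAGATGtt
Axin2, intron, chr11:108947330-108947416, minus strand: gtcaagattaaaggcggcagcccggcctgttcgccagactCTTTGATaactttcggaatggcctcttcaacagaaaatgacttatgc
Tcf7l1, promoter, chr6:72789391-72789478, plus strand: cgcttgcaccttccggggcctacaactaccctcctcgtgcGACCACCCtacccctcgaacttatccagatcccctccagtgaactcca
Rspo4, intron, chr2:151866452-151866539, plus strand: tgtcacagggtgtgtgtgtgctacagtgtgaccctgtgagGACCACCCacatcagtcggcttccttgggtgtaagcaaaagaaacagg
Dkk3, promoter, chr7:112158438-112158459, plus strand: ATCAAAGactgcagGACCACCC

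All 53 Wnt genes had a Hand2 peak within 50 kb (interval of the share from 93.2% upwards), against 82.6% of the other protein-coding genes. A Gli3 whole face peak lay near 35 of the 53 (66.0%, 52.6 to 77.3%), against 32.6% of the other genes, a share below that interval. A Gli3 MNP peak lay near 27 (50.9%, 37.9 to 63.9%), against 43.3% of the other genes, a share inside the interval. When each peak was given to the gene with the nearest TSS on each side of it in place of a 50 kb window, 33 had a Gli3 MNP peak (62.3%, 48.8 to 74.1%), against 34.2% of the other genes, a share below that interval. The 35 further genes of the pathway, such as Ctnnb1, Apc and the Dvl genes, had a Hand2 peak in 35 cases, a Gli3 whole face peak in 17 and a Gli3 MNP peak in 22.

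**Figure D1:**
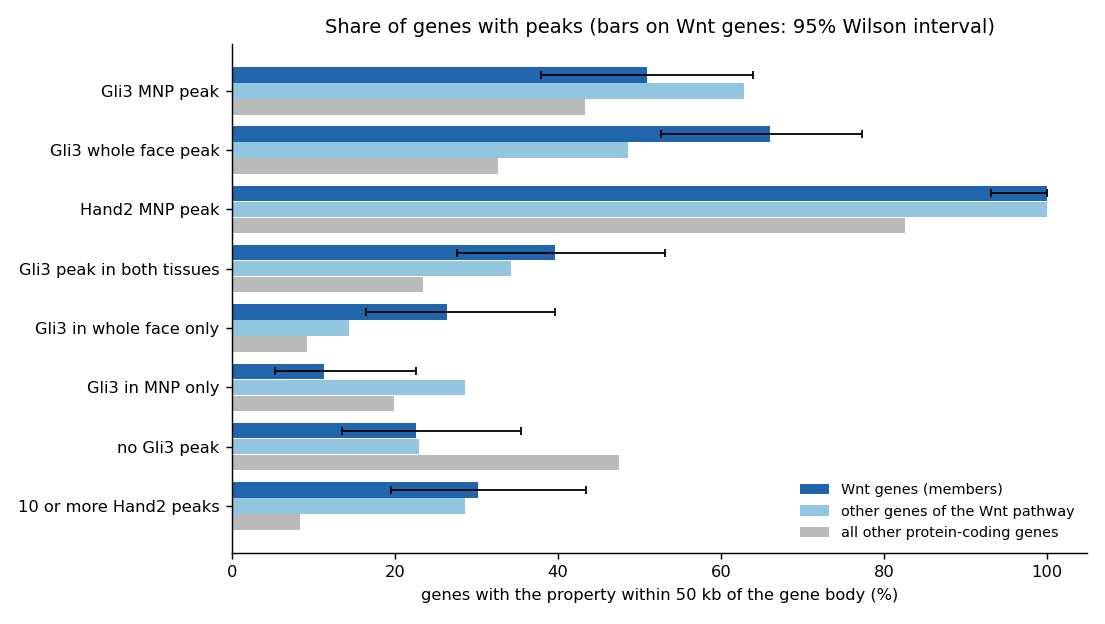
Share of genes (x axis, %) with each kind of peak within 50 kb, for the 53 Wnt genes (dark blue, with 95% Wilson intervals), the 35 further pathway genes (light blue) and all other protein-coding genes (grey). The Wnt genes stand above the other genes for whole face Gli3 peaks (66.0% against 32.6%) and for 10 or more Hand2 peaks (30.2% against 8.39%). The share with no Gli3 peak is lower among the Wnt genes (22.6% against 47.5%). For the further pathway genes these 3 shares are 48.6%, 28.6% and 22.9%, so the last 2 are not particular to the 53.

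Split by tissue, 21 Wnt genes had a Gli3 peak in both lists (39.6%, against 23.4% of the other genes), and 14 had one in the whole face list and none in the MNP list (26.4%, 16.4 to 39.6%, against 9.2%). These 14 were Wnt1, Wnt2b, Wnt5a, Wnt10b, Fzd1, Fzd6, Fzd9, Ror1, Lef1, Rspo1, Rspo2, Lgr5, Sfrp1 and Notum. The opposite pattern, an MNP peak and no whole face peak, was found for 6 (Wnt9b, Fzd3, Fzd8, Lrp6, Lgr6 and Dkk3; 11.3%, 5.29 to 22.6%, against 19.9%). No Gli3 peak of either list lay near 12 (22.6%, 13.5 to 35.5%, against 47.5%): Wnt2, Wnt3, Wnt4, Wnt7a, Wnt7b, Wnt8a, Wnt16, Fzd5, Rspo3, Sfrp2, Sfrp4 and Dkk1. Of the 35 further pathway genes, 8 (22.9%) had none. The whole face holds tissue that the MNP list does not, and the lists were called separately, so tissue and peak calling cannot be told apart in these splits.

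Hand2 peaks were also more numerous near Wnt genes. The median was 7 per gene (1 to 41), against 3 for the other genes, and the mean was 8.43 against 4.1. The median window was 126625 bp for the Wnt genes and 117384.5 bp for the other genes. Per 100 kb of window, the median was 4.55 Hand2 peaks for the Wnt genes and 2.22 for the other genes, so the values per length differed in the same direction. At least 10 Hand2 peaks lay near 16 of the 53 (30.2%, 19.5 to 43.5%), against 8.39% of the other genes. The 35 further pathway genes had a median of 6 Hand2 peaks (mean 7.26) and 4.47 per 100 kb, and 10 of them (28.6%) had at least 10. For Gli3 the medians were 1 peak in each list for Wnt genes and 0 for the other genes. The means were 0.887 against 0.699 in the MNP and 1.11 against 0.487 in the whole face. Fzd2 alone had 9 of the 47 counts behind the MNP mean, and Ror2 had 8 of the 59 behind the whole face mean. At least 2 whole face peaks lay near 13 Wnt genes (24.5%, against 10.3%), and at least 2 MNP peaks near 12 (22.6%, against 16.1%).

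**Figure D2:**
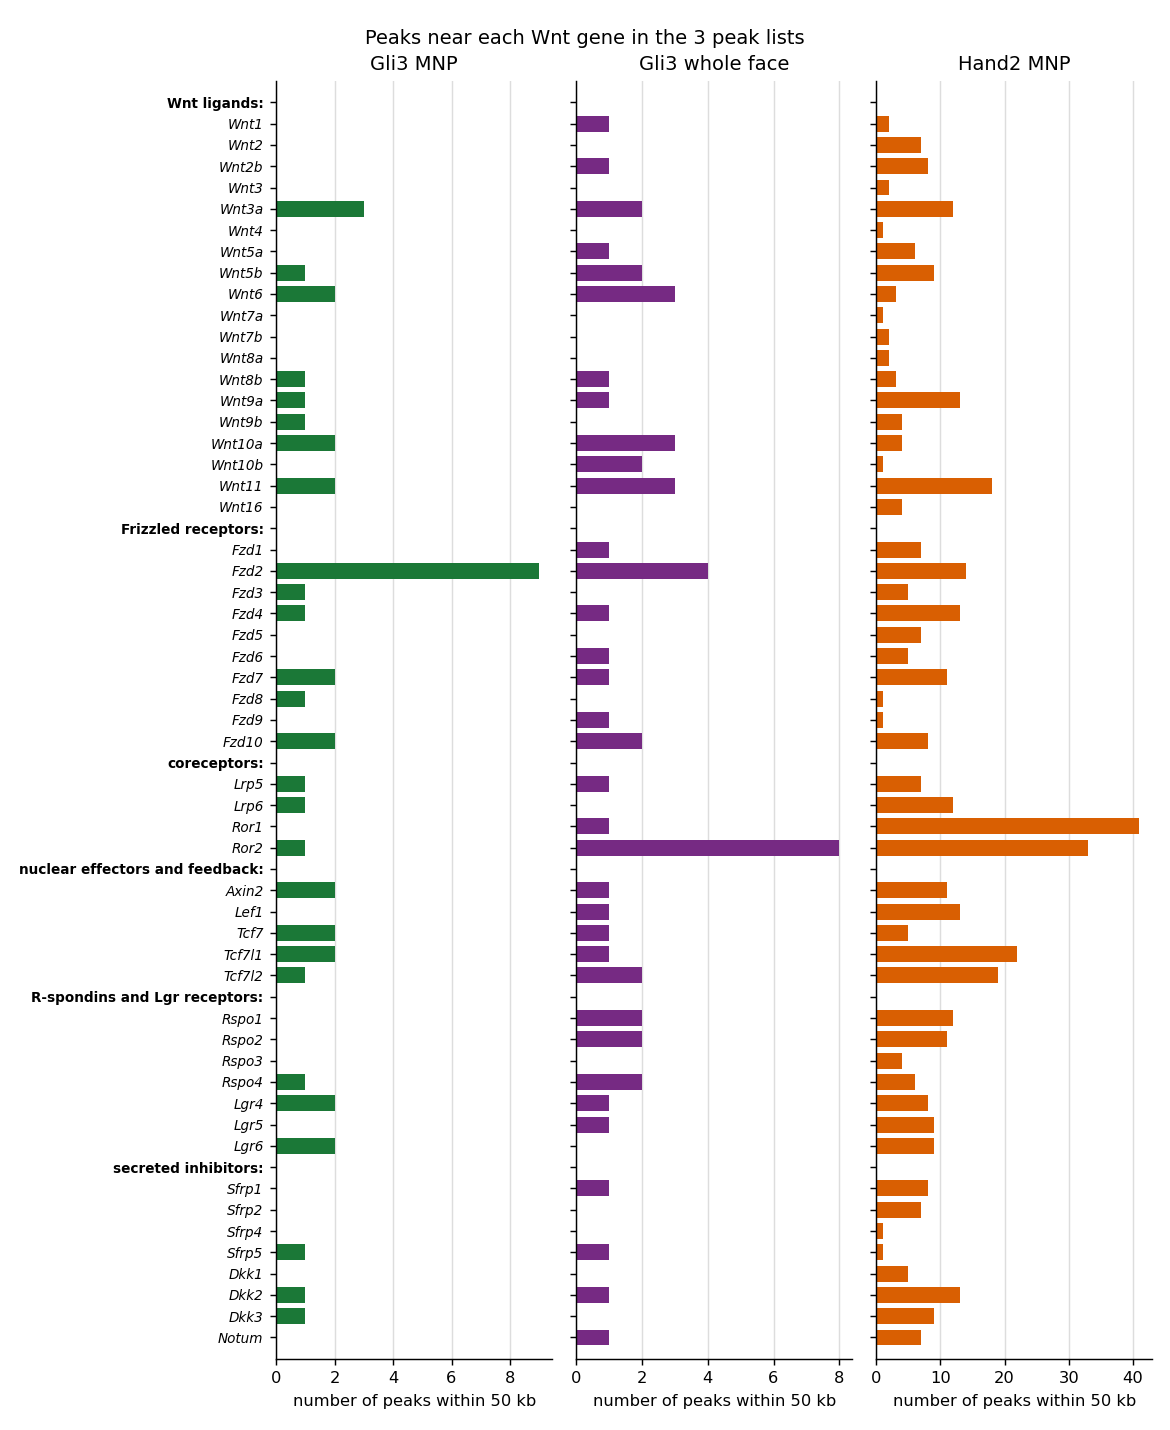
Number of peaks within 50 kb of each of the 53 Wnt genes (rows, by role) in the 3 peak lists (columns, each with its own x axis). Fzd2 had the most Gli3 MNP peaks (9), Ror2 the most Gli3 whole face peaks (8), and Ror1 (41) and Ror2 (33) the most Hand2 peaks.

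Counted once each, 44 Gli3 MNP peaks, 54 Gli3 whole face peaks and 433 Hand2 peaks lay near Wnt genes. The windows of Wnt6 and Wnt10a, Wnt1 and Wnt10b, Wnt3 and Wnt9b, and Wnt3a and Wnt9a overlap, so these pairs share peaks. A Wnt gene also had the nearest transcription start site (TSS) for 32 of the 44 MNP peaks (72.7%), 42 of the 54 whole face peaks (77.8%) and 316 of the 433 Hand2 peaks (73.0%). The rest lay nearer to another gene, named below where a member's count rests on it.

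Among the ligands, 8 of 19 had a Gli3 MNP peak and 11 had a Gli3 whole face peak. Of the other protein-coding genes, 43.3% and 32.6% did, values that also stand beside the counts of the roles below. The median number of Hand2 peaks was 4 (1 to 18), against 3 for the other genes. Wnt11, a noncanonical ligand, led with 18 Hand2 peaks, more than 98.0% of the other genes had, and it was the nearest gene for all 18. Its 2 Gli3 MNP peaks lay 37.3 and 19.5 kb upstream (chr7:98797711-98797964 and chr7:98815167-98815959), and each overlapped a whole face Gli3 peak and a Hand2 peak. Another whole face peak sat at a Wnt11 TSS (chr7:98838825-98839130), with neither an MNP Gli3 peak nor a Hand2 peak over it. The peak 37.3 kb upstream holds both GACCTCCC and CTTTGAT, in the window printed above.

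Wnt9a and Wnt3a, canonical ligands that lie side by side, had 13 and 12 Hand2 peaks. They shared 1 Gli3 site in all 3 lists, 29.7 kb downstream of the Wnt9a TSS (chr11:59336413-59336753), for which Wnt9a was the nearer gene. The remaining Gli3 peaks counted for Wnt3a, 2 in the MNP and 1 in the whole face, were nearest to 2310033P09Rik or to Arf1, a vesicle transport GTPase, and Wnt3a was the nearest gene for only 1 of its 12 Hand2 peaks.

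Wnt6 and Wnt10a, a neighbouring pair expressed in facial and dental epithelium, had Gli3 without Hand2. Within Wnt6, 2 intronic peaks 1.5 and 5.0 kb from the TSS were in both Gli3 lists (in the MNP, chr1:74773282-74773500 and chr1:74776603-74777206). A whole face peak lay in an intron of Wnt10a, 1.2 kb from its TSS, and was not in the MNP list. None of these overlapped a Hand2 peak, and the genes had only 3 and 4 Hand2 peaks in their windows. The second intronic site holds the GACCACCC printed above.

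Wnt5a, the main ligand of Ror2, had 6 Hand2 peaks and 1 Gli3 peak, in the whole face, 31.0 kb downstream of its TSS. Wnt5b had 9 Hand2 peaks. A Gli3 peak with GACCACCC in both lists lay in an intron of Wnt5b, 22.8 kb upstream of its nearest coding TSS and 10.3 kb from Fbxl14, the nearest gene. A second whole face peak there, 37.6 kb from the Wnt5b TSS, was also nearest to Fbxl14. For Wnt10b, 1 of the 2 whole face peaks was at the promoter of Fkbp11 (and held its GACCACCC), and the other was the peak 8.5 kb downstream of the Wnt1 TSS. The Gli3 peaks counted for Wnt8b and Wnt9b were at the promoters of Ndufb8 and Gosr2.

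**Figure D3:**
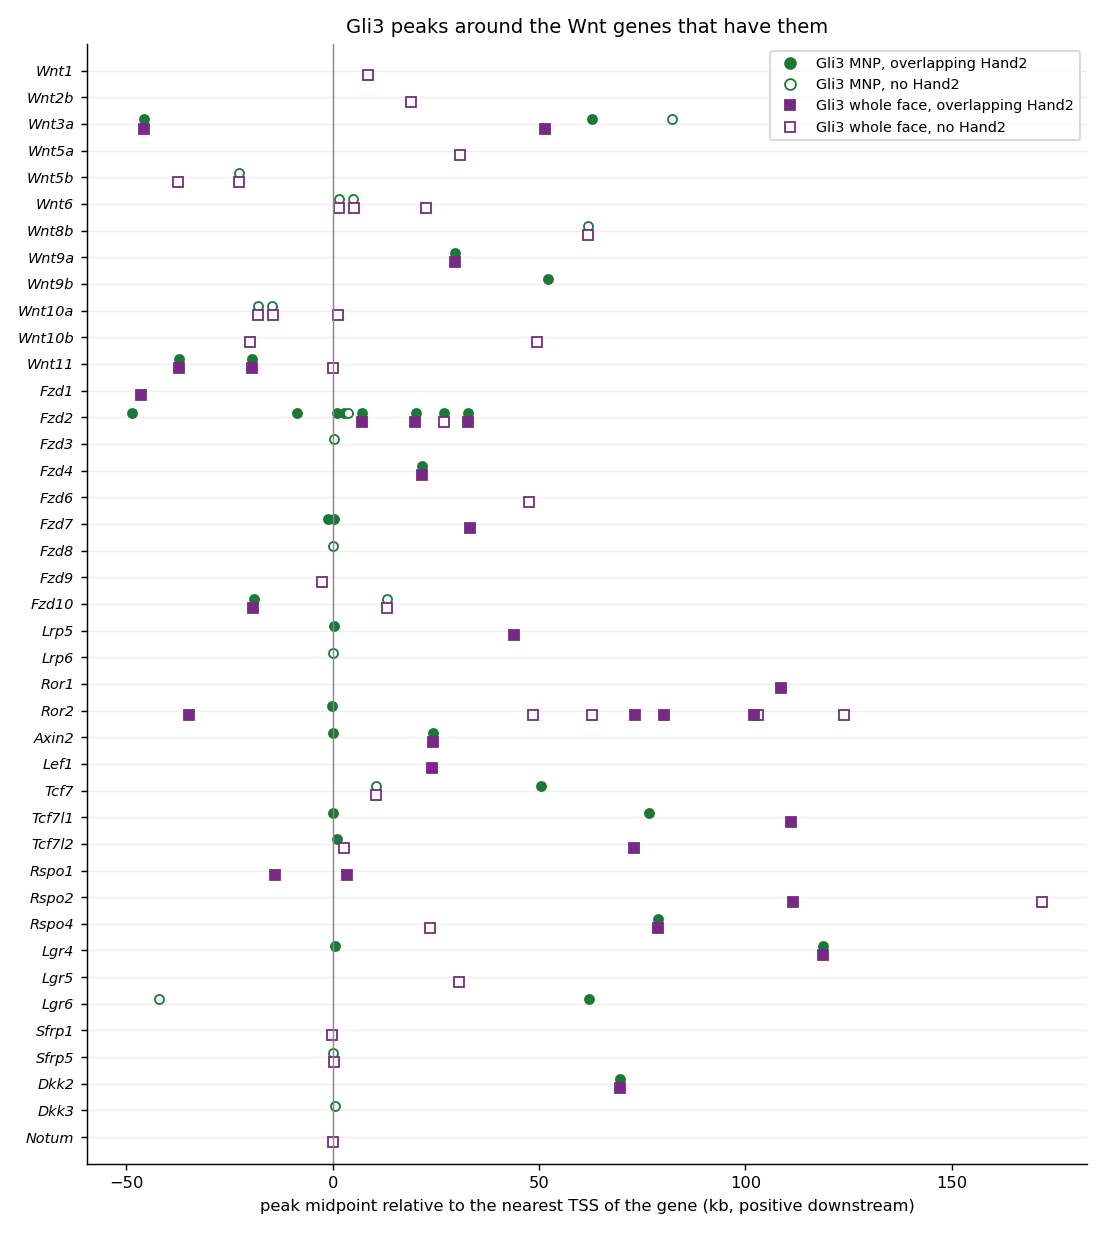
Midpoint of each Gli3 peak relative to the nearest TSS of the Wnt gene it was counted for (x axis, kb, positive downstream), for the 41 Wnt genes with a Gli3 peak (rows). Green circles are MNP peaks, purple squares whole face peaks, and filled symbols overlap a Hand2 peak. Of the 11 MNP peaks at a TSS, 10 have no whole face partner. Partners are also uncommon elsewhere, at 21.3% of the MNP promoter peaks away from Wnt genes. The 8 whole face peaks of Ror2 lie away from its TSS.

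Of the 10 Frizzled receptors, 6 had a Gli3 MNP peak and 7 a whole face peak, and the median number of Hand2 peaks was 7 (1 to 14). Fzd2, a receptor used in both branches, stood apart with 9 Gli3 MNP peaks, of which 8 overlapped a Hand2 peak, 4 whole face peaks and 14 Hand2 peaks. In the MNP, a peak of 2201 bp covered its TSS and coding exon (chr11:102604316-102606516), followed by peaks of 1028 and 713 bp over its 3′ end. Further downstream, 4 sites 7.0, 20.1, 27.0 and 32.9 kb from the TSS were in both Gli3 lists, the most of any Wnt gene. At 3 of these the whole face peak overlapped Hand2 too. At 27.0 kb the Hand2 peak (chr11:102630759-102631139) overlapped only the edge of the MNP peak (chr11:102631003-102631709), and the GACCACCC printed above lay outside it.

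Upstream of Fzd2, an MNP peak 8.7 kb from the TSS (chr11:102595526-102595807) lay inside a Hand2 peak (chr11:102595089-102595998) and had no whole face partner. It holds CTTTGAT at 2 places with a CAGATG between them, as printed above. The farthest upstream Gli3 peak counted for Fzd2 was at the promoter of Gpatch8, and the one at 32.9 kb was nearer to Meioc.

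Fzd4, a receptor known for its role in blood vessels of the eye, had 13 Hand2 peaks and 1 site 21.7 kb downstream of its TSS in all 3 lists (chr7:89425865-89426164). Fzd10 had 8 Hand2 peaks and 2 sites in both Gli3 lists. The upstream one, 19.1 kb from the TSS (chr5:128581367-128582106), overlapped Hand2 and holds GACCACCC in its MNP peak, and the downstream one at 13.3 kb had no Hand2 peak. Fzd7 had 11 Hand2 peaks, 1 of them 1856 bp wide over its promoter and overlapping both of its MNP Gli3 peaks. Its whole face peak was at the promoter of Gm973. The only Gli3 peak counted for Fzd6, in the whole face, was nearest to Cthrc1. Fzd3 and Fzd8 had a single Gli3 peak each, in the MNP at the TSS, without Hand2.

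Of the 4 coreceptors, 3 had a Gli3 MNP peak and 3 a whole face peak. Ror1 and Ror2, receptor tyrosine kinases of the noncanonical branch, had 41 and 33 Hand2 peaks. Of these, 35 and 26 were in introns. Both genes are long (348975 and 176813 bp), and their Hand2 peaks numbered 9.13 and 11.9 per 100 kb, above the values of 98.0% and 99.5% of the other genes.

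Ror2, which is mutated in Robinow syndrome of the face and skeleton, had different Gli3 peaks in the 2 Gli3 lists. Its only MNP Gli3 peak covered the promoter (chr13:53285215-53286414) and overlapped Hand2. Its 8 whole face peaks were elsewhere, with 7 in introns 48.6 to 123.8 kb from the TSS and 1 that lay 34.9 kb upstream. None overlapped an MNP Gli3 peak. Of the whole face peaks beyond promoters and away from Wnt genes, 31.8% did, and tissue and peak calling cannot be told apart here. Hand2 peaks of the MNP overlapped 4 of the 8. Both whole face peaks with GACCACCC (48.6 and 62.9 kb from the TSS) were among those without Hand2, and both with CTTTGAT (80.3 kb downstream and 34.9 kb upstream) were among those with Hand2. Ror1 had 1 whole face peak, 108.7 kb into the gene, which overlapped Hand2 and was not in the MNP list.

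Lrp5 and Lrp6, the canonical coreceptors, had 7 and 12 Hand2 peaks and 1 MNP Gli3 peak each, at the promoter. That of Lrp5 overlapped Hand2 (chr19:3685872-3686739), and that of Lrp6, which holds CTTTGAT, did not. Lrp5 also had an intronic whole face peak 43.9 kb from the TSS that overlapped Hand2.

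The 5 nuclear and feedback genes had 5 to 22 Hand2 peaks (median 13). Each had a whole face Gli3 peak, and 4 had an MNP peak. Axin2, a scaffold of the β-catenin destruction complex and itself a Wnt target, had 11 Hand2 peaks and was the nearest gene for all of them. Its promoter carried an MNP peak of 2017 bp that overlapped Hand2 and was not in the whole face list. An intronic site 24.4 kb downstream (chr11:108947299-108947811) was in all 3 lists, and the MNP peak there holds the CTTTGAT printed above, 1 of 3 such matches in the MNP peaks of Axin2.

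Tcf7l1 and Tcf7l2, Tcf/Lef factors of which the first acts mainly as a repressor, had 22 and 19 Hand2 peaks. Tcf7l1 was the nearest gene for 11 of its 22 and Tcf7l2 for all 19. The promoter of Tcf7l1 carried an MNP Gli3 peak of 1810 bp that overlapped Hand2 and holds GACCACCC upstream of the start. A second MNP peak, 76.7 kb into the gene, also overlapped Hand2. The whole face peak counted for Tcf7l1 was nearest to Tgoln1. Tcf7l2 had an MNP peak of 2357 bp just inside the gene, its midpoint 1022 bp from a TSS, and 2 whole face peaks at other positions. Lef1 had 13 Hand2 peaks and 1 Gli3 peak, in the whole face, 24.1 kb into the gene and overlapping Hand2. Tcf7 had an intronic Gli3 site in both tissues without Hand2, 10.5 kb from the TSS, while its other MNP peak was at the promoter of Skp1a.

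Of the 4 R-spondins and 3 Lgr receptors, 3 had an MNP Gli3 peak and 5 a whole face peak, with a median of 9 Hand2 peaks (4 to 12). Rspo1 and Rspo2 had 12 and 11 Hand2 peaks and 2 whole face Gli3 peaks each, and neither had an MNP peak. Both whole face peaks of Rspo1 overlapped Hand2 (14.1 kb upstream and 3.4 kb into the gene), as did the intronic one of Rspo2, whose protein is needed for limb and face growth. Rspo4 had a whole face peak with GACCACCC in an intron, without Hand2, and 1 site in all 3 lists 78.9 kb from its TSS, nearer to Angpt4. Lgr4 had an MNP peak at its promoter that overlapped Hand2, and a site in all 3 lists 118.8 kb from its TSS, nearer to Ccdc34. Lgr5 and Lgr6 had 9 Hand2 peaks each. The only Gli3 peak counted for Lgr5, in the whole face, was nearest to A930009A15Rik. The 2 MNP peaks counted for Lgr6 were at the promoters of Ppp1r12b and Arl8a.

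The 8 secreted inhibitors had the lowest mean number of Gli3 peaks per gene of the 6 roles in the whole face (0.5), near the 0.487 of the other protein-coding genes. An MNP peak lay near 3 of the 8 and a whole face peak near 4, against 43.3% and 32.6% of the other genes. No inhibitor had more than 1 peak of either Gli3 list. Dkk2, which binds Lrp5 and Lrp6, had 13 Hand2 peaks and an intronic site 69.7 kb from the TSS in all 3 lists (chr3:132154835-132155218) with CTTTGAT in the MNP peak. Sfrp1, Sfrp5 and Notum had a whole face Gli3 peak at the TSS, without Hand2. That of Sfrp5 (chr19:42201834-42202159) was also in the MNP list, the only promoter site of a Wnt gene found in both. Sfrp proteins bind Wnts directly, and Notum removes their lipid. Dkk3, a divergent Dickkopf, had 9 Hand2 peaks and an MNP Gli3 peak 654 bp from its TSS without Hand2, in which CTTTGAT, on the opposite strand, and GACCACCC stand 7 bases apart. Sfrp1 had 8 Hand2 peaks, and for all of them it was the nearest gene.

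At their own promoters (midpoint within 1 kb of a TSS of the gene), 11 Wnt genes had an MNP Gli3 peak (20.8%, 12.0 to 33.5%, against 17.0% of the other genes): Fzd3, Fzd7, Fzd8, Lrp5, Lrp6, Ror2, Axin2, Tcf7l1, Lgr4, Sfrp5 and Dkk3. Of these 11 peaks, 6 overlapped Hand2 and 1, that of Sfrp5, was in the whole face list. Among MNP promoter peaks away from Wnt genes, 63.5% overlapped Hand2 and 21.3% a whole face peak. Whole face peaks were at the promoters of 4 (Wnt11, Sfrp1, Sfrp5 and Notum, 7.55%, against 6.15%). None of these overlapped Hand2, against 48.6% of the whole face promoter peaks away from Wnt genes that did. Hand2 peaks were at the promoters of 24 (45.3%, 32.7 to 58.5%, against 33.7%): Wnt2b, Wnt5a, Wnt5b, Wnt9a, Wnt11, Fzd1, Fzd2, Fzd4, Fzd5, Fzd7, Fzd10, Lrp5, Ror2, Axin2, Lef1, Tcf7l1, Rspo2, Lgr4, Lgr5, Lgr6, Sfrp2, Dkk1, Dkk2 and Dkk3. The shares of the other genes were inside all 3 intervals. With peaks at any promoter left out, 17 of the 53 Wnt genes still had an MNP Gli3 peak, a larger share than the 11.2% of the other genes.

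Of the MNP Gli3 peaks near Wnt genes, 43.2% (29.7 to 57.8%) were at a promoter of some gene, against 64.4% of the other MNP peaks. In the whole face list the shares were 13.0% (6.42 to 24.4%) and 22.4%. Of the 25 MNP peaks near Wnt genes beyond promoters, 72.0% were also in the whole face list, against 71.5% of the other such peaks. At promoters it was 2 of 19 (10.5%), against 21.3%.

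Hand2 overlapped 30 of the 44 MNP Gli3 peaks near Wnt genes (68.2%, 53.4 to 80.0%) and 61.4% of the other MNP peaks. Fzd2 alone gave 9 of the 44 peaks and 8 of the 30 overlaps, so the share leans on 1 gene. Beyond promoters, Hand2 overlapped 19 of 25 (76.0%, 56.6 to 88.5%), against 57.6%, just inside the interval. The 25 include peaks of Fzd2, Tcf7l2 and Fzd7 with midpoints only 1020, 1022 and 1059 bp from a TSS, each overlapping Hand2. Over all 44 peaks, the order turned when overlap was asked of at least 50% of the Gli3 peak (40.9%, against 44.5%). It also turned when overlap was asked of its middle 200 bp (50%, against 52.3%). In the whole face list it was 27 of 54 (50%, 37.1 to 62.9%), against 47.5%. By gene, 18 Wnt genes had a Gli3/Hand2 overlapping MNP peak (34.0%, against 29.8% of the other genes), and 14 had a Gli3-alone MNP peak (26.4%, against 22.0%). For the whole face, 20 had an overlapping peak (37.7%, 25.9 to 51.2%, against 16.7%) and 22 a Gli3-alone peak (41.5%, 29.3 to 54.9%, against 21.5%). The greater share of Wnt genes with whole face Gli3 peaks was therefore seen with and without Hand2. Seen from Hand2, an MNP Gli3 peak overlapped 6.93% (4.9 to 9.72%) of the 433 peaks near Wnt genes, against 5.89% of the other Hand2 peaks. A whole face Gli3 peak overlapped 6.24% (4.32 to 8.92%), against 4.53%. The shares of the other peaks were inside these intervals. The 388 peaks near Wnt genes that overlapped no Gli3 peak had a median width of 451 bp. The 30 that overlapped an MNP Gli3 peak had a median width of 649 bp, and the 15 that overlapped a whole face peak only, 676 bp. A wider peak meets the 1 bp rule more easily, so the widths are not independent of the overlap.

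A GACCACCC was found in 8 of the 44 MNP peaks (18.2%, 9.51 to 32.0%), against 13.3% of the other MNP peaks, and in 8 of the 54 whole face peaks (14.8%, 7.7 to 26.6%), against 19.8%. By gene, 7 Wnt genes had an MNP peak with GACCACCC: Wnt5b, Wnt6, Wnt10a, Fzd2, Fzd10, Tcf7l1 and Dkk3 (13.2%, 6.55 to 24.8%, against 7.04% of the other genes). In the whole face list there were also 7: Wnt5b, Wnt6, Wnt10a, Wnt10b, Fzd2, Ror2 and Rspo4 (13.2%, 6.55 to 24.8%, against 8.88%). The shares of the other genes were inside both intervals, and Wnt6 and Wnt10a were counted for the same peak in each list. Restricted to the middle 200 bp of each peak, the shares were 9.09% against 8.34% in the MNP and 9.26% against 18.1% in the whole face. Beyond promoters, the MNP values were 12.0% against 18.6%, in the opposite order. In Hand2 peaks, the E-box CAGATG was in the middle 200 bp of 26.1% (22.2 to 30.4%) near Wnt genes, against 28.2% of the other Hand2 peaks. The core CCTCC of the divergent Gli motif was in 84.1% of the MNP peaks near Wnt genes and 90.3% of the other MNP peaks. None of the 6 promoter MNP peaks that overlapped Hand2 (Fzd7, Lrp5, Ror2, Axin2, Tcf7l1 and Lgr4) holds GACCACCC, GACCTCCC, CAGATG or CTTTGAT in its middle 120 bp. These letters are also rare in the middle 200 bp of MNP promoter peaks away from Wnt genes (2.68%, 2.14%, 6.12% and 0.751%). Over its whole length, the Axin2 peak holds CTTTGAT, that of Tcf7l1 GACCACCC and GACCTCCC, and those of Lrp5 and Ror2 CAGATG.

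Of the 6 motifs searched in MNP Gli3 peaks, that of Tcf/Lef showed the largest ratio between peaks near Wnt genes and the rest. CTTTGAT was in 11 of the 44 MNP Gli3 peaks near Wnt genes (25.0%, 14.6 to 39.4%), against 5.41% of the other MNP peaks. In the middle 200 bp it was in 4 of 44 (9.09%, 3.59 to 21.2%), against 1.65%. The 11 peaks were counted for Wnt6 (and Wnt10a), Wnt11, Fzd2 (3 peaks), Lrp6, Axin2 (2 peaks), Tcf7, Dkk2 and Dkk3. Peaks near Wnt genes were not wider (median 527.5 bp, against 578.0 bp), and their GC content was 60%, against 62.2%. The share was 21.1% at promoters (4 of 19), against 4.47%, and 28.0% beyond them (7 of 25), against 7.09%. Without the 9 peaks of Fzd2, a setting chosen after the values were seen, it was 8 of 35 (22.9%, 12.1 to 39.0%). In the whole face list the share was 11.1% (5.19 to 22.2%), against 5.56%, with the other peaks inside the interval, and in Hand2 peaks it was 9.47% both near Wnt genes and elsewhere. These matches are letters in a peak, and binding by a Tcf/Lef factor was not measured.

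**Figure D4:**
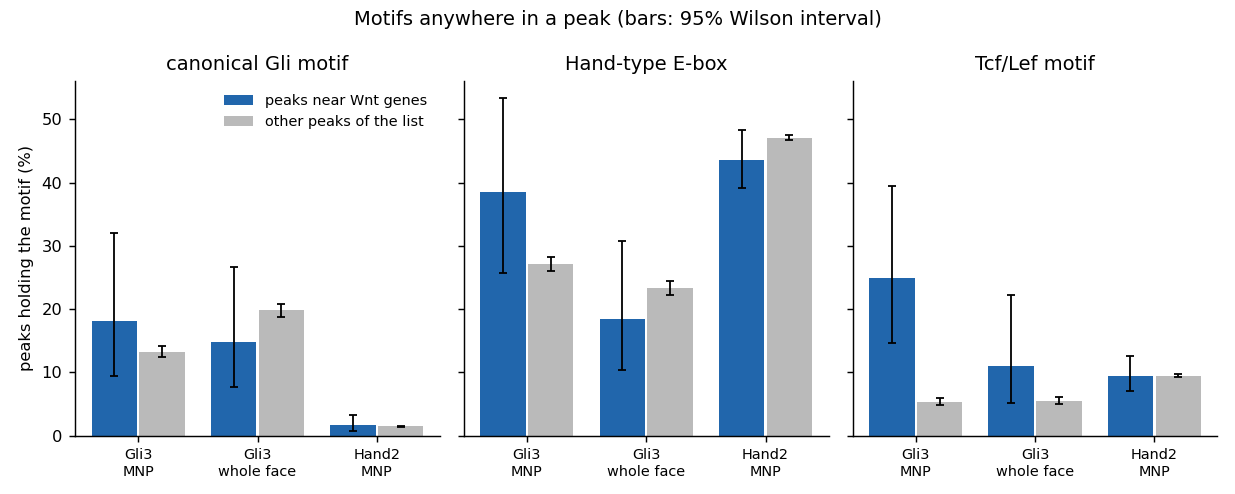
Share of peaks (y axis, %) that hold the canonical Gli motif, the Hand-type E-box or the Tcf/Lef motif anywhere in the peak, for peaks near Wnt genes (blue) and the other peaks of the same list (grey), with 95% Wilson intervals. The Tcf/Lef share in MNP Gli3 peaks was 25.0% near Wnt genes and 5.41% elsewhere, whereas the Hand2 list had 9.47% in both.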

How the data were processed

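ChIP-seq peak lists of 3 groups with 2 samples each were analysed. Per the labels and the study's methods, 75 bp reads were mapped with BWA to mm10 and replicates were merged with bedtools. The deposited lists hold peak start and end positions and names, with no score or count, so the precision of a peak is unknown. Every peak's name carries entries of both replicates. The sources used here do not name the program that called the whole face peaks. Peaks were counted by midpoint within 50 kb of gene bodies of GENCODE vM21 (protein-coding genes, mm10), overlaps needed 1 bp, and promoters were within 1 kb of a TSS. Motifs were exact letters on both strands of the RefSeq GRCm38.p6 sequence, and each share stands beside that of the other peaks of the list. Python 3.11.15 and numpy 2.4.6 were used, and the counting was tested on simulated peaks. The members, lists and rules were chosen with earlier results of these data known. Genes described in full were the 3 of each role with most Hand2 peaks and those with GACCACCC in a Gli3 peak. Those with a peak in all 3 lists, or with 2 or more peaks in a Gli3 list, were also described. Other windows, peak widths, overlaps and gene assignments were tried. The series' own text gives an earlier embryonic day than the labels and methods, which were followed.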

Additional observations from a re-analysis of the deposited data

How the results depend on the processing

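No paired analysis was possible because each list merges both replicates. Every peak carries an entry of both, so leaving out a replicate could remove no peak and says nothing about stability. Apart from that setting, 58 values were computed under other settings: 43 were near those reported (counts and medians within 1.5 times, shares within the reported interval) and 15 were not. With windows of 10 kb, unique peaks near Wnt genes numbered 26 for Gli3 in the MNP and 263 for Hand2, and the median number of Hand2 peaks was 3.0 per gene, against 1.0 for the other genes. With windows of 100 kb that median was 11, against 6.0. With 50 kb around the TSS, 281 Hand2 peaks were counted. With peaks narrower than their list's median left out, 17 of the 53 Wnt genes had a Gli3 MNP peak, against 28.6% of the other genes. The unique peaks then numbered 20, 32 and 232 for Gli3 in the MNP, Gli3 in the whole face and Hand2. The median number of Hand2 peaks was then 4.0, against 1.0. With peaks given to the nearest gene on each side, 33 of the 53 Wnt genes had a Gli3 MNP peak (62.3%, 48.8 to 74.1%), against 34.2%. By the rule above this count was among the 43 near values, but the share of the other genes now lay below the interval. Without promoter peaks, 17 of the 53 Wnt genes had a Gli3 MNP peak (against 11.2% of the other genes), from 25 peaks. Hand2 overlapped 40.9% of MNP Gli3 peaks near Wnt genes (against 44.5%) when 50% of the peak had to be covered, and 50% (against 52.3%) when its middle 200 bp had to be touched. CAGATG was in 43.6% of Hand2 peaks near Wnt genes, against 47.1%, when whole peaks were searched. The number of Wnt genes with a whole face Gli3 peak was 27 to 38 over all settings. Peak heights are not in the lists, so weak and strong peaks count alike, and intervals treat peaks as independent although neighbouring peaks and genes share regions.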
